A study of Macaca mulatta with 24 samples.

Results

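The genes described here are 39 members of the machinery that finds and repairs DNA double-strand breaks and halts the cell cycle while repair goes on. They were measured in whole blood of rhesus macaques before and after total body irradiation with 4 Gy. A probe was counted for a member when the array annotation gave it that gene name, with MRE11 counted under the older name MRE11A, and the brightest probe stood for the gene. By that rule 32 of the 39 members had a probe (52 probes in all), and 31 were tested, among 10543 named genes tested in the whole series. BRIP1, a helicase of the Fanconi anaemia pathway, was left out as too dim, since its probe rose well above background on 0 arrays of the pre-irradiation and day 3 groups and on 1 array each of day 5 and day 7. Another 5 members were found only through a probe's description (FANCA, FANCD2, FANCL and PALB2) or its transcript record (CHEK1). They are given apart from the counts. FANCA was too dim to test. No probe was matched to PRKDC, the catalytic kinase of end joining, or to XRCC4, the partner of the end-joining ligase.

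The pre-irradiation group held 7 arrays (4 male and 3 female animals). The day 3 group held 4 arrays (3 male, 1 female), the day 5 group 6 arrays (4 male, 2 female) and the day 7 group 7 arrays (4 male, 3 female). Every array carried globin-depleted RNA of PAXgene blood from 1 animal on 1 day, and a replicate number stands for 1 animal at all its times. The methods describe adult macaques of Chinese origin, and a genotype was not given in the sources used here. These did not agree on the radiation source, X-rays in the labels and gamma rays in the methods. They also placed the pre-irradiation draw differently, on day 0 or on a day before it. The 3 comparisons with pre-irradiation blood share the same 7 pre-irradiation arrays. Whole blood is a mixture, so that fewer cells of a type and less RNA per cell cannot be told apart in any value below.

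Between 48.3% and 61.2% of the spots of an array were well above background. All day 3 and day 5 arrays were scanned in the same session, together with replicate 5 of the pre-irradiation and day 7 groups, whereas the other 6 pre-irradiation and 6 day 7 arrays were scanned in another. Marker genes of some blood cells moved strongly with the days. Beside the counts below, 13.5%, 15.3% and 9.85% of all named genes were called at days 3, 5 and 7. All 7 tested B cell markers were called lower on each day, with a mean level of 10.72 to 11.09 on the pre-irradiation arrays and of at most 8.18 after irradiation. The 8 erythroid markers fell (7, 8 and 8 called at days 3, 5 and 7), and the 7 platelet markers were all called higher at day 3, 2 of them still at day 5. Of the 11 T cell markers 4 were called lower at day 3, 2 at day 5 (18.2%) and 0 at day 7, with medians of −0.79, −0.40 and −0.06. Of the 7 monocyte markers 2, 2 and 1 were called higher (28.6%, 28.6% and 14.3%), and of the 6 neutrophil markers 1 on each day (16.7%). The median differences of the 7 NK and cytotoxic markers were 0.42, 0.17 and 0.06, and those of the 4 progenitor markers 0.71, −0.44 and −0.80. No marker of either list was called on these days. The part of these shifts in the values of the repair genes was not tested.

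A double-strand break is bound by the MRE11, RAD50 and NBN complex, which recruits and activates the ATM kinase, while single-stranded DNA at resected ends activates ATR. ATM and ATR phosphorylate histone H2AX, the scaffold MDC1 and the effector kinases CHEK1 and CHEK2. The break is then sealed either by end joining or by homologous recombination. End joining needs the Ku heterodimer (XRCC5 and XRCC6) and ligase IV, with Artemis (DCLRE1C) for some ends, and serves resting cells such as blood lymphocytes. Homologous recombination copies a sister chromatid in cells that have replicated their DNA. Much of this system is controlled on the protein rather than on the transcript, and the lymphocytes of the blood are among the most radiation-sensitive cells of the body.

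The array measures each gene with oligonucleotides of 60 bases, and the results turn on which one is read. The sequences of the ATM pair are shown because these probes moved in opposite directions, and those of XRCC2, ATR, MDC1 and FANCC because these are the members called higher. All are written 5′ to 3′ as the array annotation gives them, on the rheMac2 build. The capitals in MDC1 mark its last 3 bases, TGA, in the letters of a stop codon. The sequences of the second RAD54L probe and a further XRCC5 probe are shown because they were called where the brightest probes were not.
ATM, brightest probe: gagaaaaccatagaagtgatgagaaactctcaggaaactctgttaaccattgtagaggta
ATM, other probe: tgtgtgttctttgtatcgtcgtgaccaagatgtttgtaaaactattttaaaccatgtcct
XRCC2: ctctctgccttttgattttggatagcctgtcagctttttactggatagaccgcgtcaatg
ATR: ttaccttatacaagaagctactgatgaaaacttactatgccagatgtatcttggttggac
MDC1: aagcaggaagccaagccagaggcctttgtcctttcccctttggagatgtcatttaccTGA
FANCC: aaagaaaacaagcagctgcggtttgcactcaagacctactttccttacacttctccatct
RAD54L, second probe: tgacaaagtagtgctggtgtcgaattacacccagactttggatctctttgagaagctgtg
XRCC5, further probe: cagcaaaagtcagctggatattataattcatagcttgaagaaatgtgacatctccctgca

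Both ATM probes are assigned to the same transcript on the plus strand of chromosome 14. The brightest lies at chr14:106931893-106931951 and the other upstream at chr14:106849139-106849198. The XRCC2 probe lies on the minus strand at chr3:189596454-189596513, the ATR probe on the plus strand at chr2:145417478-145417537 and the MDC1 probe on the minus strand at chr4:30287399-30287458. The FANCC probe was placed on the minus strand at chr15:106930469-106937933, an interval longer than the probe itself. The RAD54L probe lies on the plus strand at chr1:49213742-49213801 and the XRCC5 probe on the plus strand at chr12:79938498-79938557. Whether each position is exonic was not analysed here, because no annotation of this build was used.

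Levels below are log2 normalised signals, differences are log2 differences against pre-irradiation blood unless another day is named, and errors of differences are SE. A gene was called when its adjusted p in the limma fit across all probes was under 0.005. At day 3, 1 member was called higher and 4 lower (16.1% of 31), against 13.5% of all named genes, of which 5.91% were higher and 7.56% lower. At day 5 none was higher and 3 were lower (9.68%), against 15.3% of named genes (6.25% higher, 9.07% lower). At day 7, 3 were higher and 1 lower (12.9%), against 9.85% of named genes (2.7% higher, 7.14% lower), and 1 of the 3 is FANCC, which passed the dim-probe filter through later days. With the animal as a block the 5 calls at day 3 became 1 and the 4 at day 7 became 3. Without replicate 1, 2 or 4 there were 3, 1 and 2 calls at day 3, and at day 7 there were 1 or 2 without any 1 replicate but replicate 4. With another background correction (normexp) 0, 1 and 1 members were called, and with the scan session as a block none was at days 3 and 5, where that block rests on 1 pre-irradiation array. The share of members called in the main setting was near that of all named genes at day 3 and below it at day 5, and the day 7 share is not read because of FANCC. The median difference of the 31 members took the values −0.17, 0.06 and 0.09 over the 3 days in order, beside −0.01 for all named genes on each day. Groups did not overlap in 7, 4 and 3 members, where 21.2%, 13.3% and 8.08% of named genes did not overlap. At an adjusted p under 0.05 there were 2 higher and 8 lower members at day 3 (32.3%, against 36.0% of named genes). At that threshold 1 was higher and 5 lower at day 5 (19.4%, against 33.9%), and 9 higher and 2 lower at day 7 (35.5%, against 26.3%). The 9 include FANCC and BRCA2, whose probes were above background on 0 pre-irradiation arrays, so this share is not read either. At an unadjusted p under 0.05 there were 10, 9 and 18 members, where 46.6%, 45.6% and 39.5% of all probes were.

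**Figure D1:**
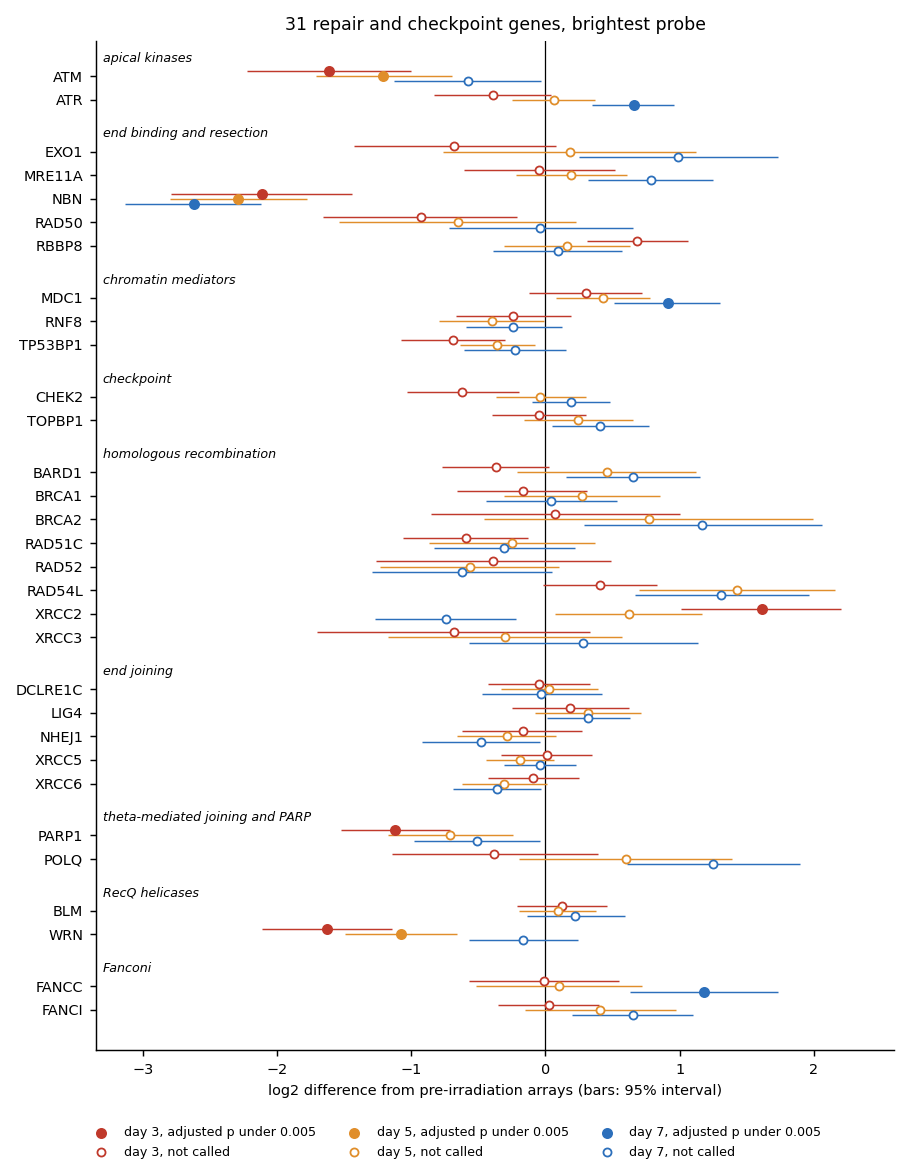
Log2 difference from pre-irradiation blood (x axis) of the 31 tested members, ordered by role, at day 3, day 5 and day 7. Points are estimates, lines 95% intervals and filled points members called at an adjusted p under 0.005. NBN lies furthest to the left on each day, at −2.11, −2.29 and −2.62, and the 5 end-joining genes lie between −0.48 and 0.32.

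NBN, the nibrin subunit that ties the break-binding complex to ATM, fell on every day and in every animal. Its levels before irradiation had a lowest value of 12.68, a median of 13.35 and a highest value of 13.65. The 4 day 3 arrays read 11.42, 10.86, 12.07 and 10.29. The lowest, median and highest values were 10.40, 11 and 11.63 at day 5, and 9.72, 10.74 and 11.36 at day 7. No array after irradiation reached the lowest of the 7 before it. The differences were −2.11 ± 0.31 (adjusted p = 0.000625), −2.29 ± 0.24 (adjusted p = 1.21e-05) and −2.62 ± 0.24 (adjusted p = 5.71e-06), a 4.33-fold, 4.89-fold and 6.16-fold lower signal. With the animal as a block NBN stayed called on each day, and without replicate 2 its day 3 call was lost. That call was also lost with normexp and with the scan session as a block, which rests on 1 pre-irradiation array. The day 5 call was lost with the session block too. NBN had only 1 probe, so no other probe could be compared. Within a scan session it was lower by a similar amount, at −2.42 and −2.60 for days 3 and 5 against the 1 pre-irradiation array of their session, and −2.62 at day 7 (6 against 6 arrays).

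ATM, the kinase that NBN brings to the break, was called lower at days 3 and 5. Its brightest probe read 7.63, 8.29 and 9.15 (lowest, median, highest) before irradiation. At day 3 its arrays read 6.34, 6.84, 6.69 and 6.98, and at day 5 they ran from 6.61 to 7.35 around a median of 7.23. Neither day overlapped with the pre-irradiation arrays. The differences were −1.61 ± 0.28 (adjusted p = 0.00149, 3.05-fold lower, 4 of 4 animals) and −1.21 ± 0.24 (adjusted p = 0.00153, 2.31-fold lower, 6 of 6 animals). At day 7 the levels (7.16, 7.64 and 8.43) overlapped with those before, with a difference of −0.58 ± 0.26 (adjusted p = 0.108). The day 3 call was lost with the animal as a block (adjusted p = 0.00517), the differences within the scan session were smaller, −0.92 and −0.52 against 1 array, and with normexp they were −0.75 and −0.43. Without any 1 of replicates 1, 2, 4 and 7 the day 3 call was lost too, and without replicate 3, 4, 6 or 7 that of day 5.

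The other ATM probe moved the opposite way. Its mean level was 6.64 ± 0.19 (SD, n = 7) before irradiation and 7.51 ± 0.37 (n = 6) at day 5, where it was called higher by 0.87 ± 0.17 (adjusted p = 0.00153). At day 3 its arrays spread from 5.94 to 9.15, with a difference of 0.99 ± 0.45 (adjusted p = 0.106), and at day 7 the difference was 0.36 (adjusted p = 0.305). A fall of the ATM transcript therefore rests on the probe chosen.

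ATR, the kinase of replication stress and resected ends, was called higher in its only probe at day 7. The lowest, median and highest levels were 9.0, 9.26 and 9.61 before irradiation and 9.60, 10 and 10.18 at day 7, so that the groups touched at 1 array. The difference was 0.66 ± 0.14 (adjusted p = 0.00347, 1.58-fold, 7 of 7 animals higher). Its day 3 arrays read 8.55, 8.72, 8.82 and 9.50 and its day 5 arrays 8.96 to 9.49, with differences of −0.39 (adjusted p = 0.144) and 0.06 (adjusted p = 0.786). With the animal as a block the day 7 value had an adjusted p of 0.0163, and it missed the threshold without any 1 replicate other than replicate 2. The call was also lost with normexp (adjusted p = 0.149), with no filter on dim probes (adjusted p = 0.0103) and in the value table (adjusted p = 0.01), at differences of 0.61 to 0.67. Within the session of 6 against 6 arrays the difference was 0.60.

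**Figure D2:**
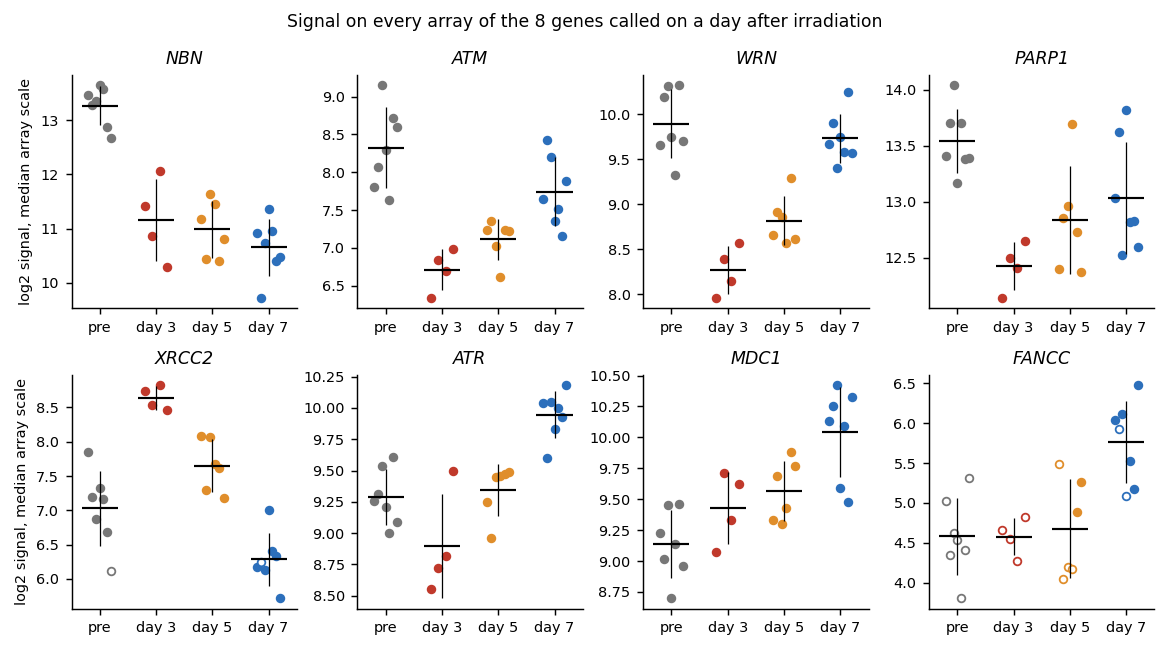
Log2 normalised signal (y axis) of the 8 members called on any day, 1 point per array, with the 4 groups in order of time along the x axis. Filled points were well above background, the line is the group mean and the bar the SD. The points of NBN after irradiation lie below 12.68, the lowest value before it, and the FANCC points before irradiation are all open.

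Among the other genes of end binding and resection none was called in its brightest probe at 0.005, with 2, 0 and 2 of the other 4 at an unadjusted p under 0.05 on the 3 days (46.6%, 45.6% and 39.5% of all probes). MRE11A, the nuclease subunit of the complex, differed by −0.05, 0.19 and 0.79 (adjusted p = 0.0151 at day 7). RAD50, the long coiled-coil subunit, differed by −0.93 (adjusted p = 0.0446), −0.65 and −0.04, the day 5 value over 5 arrays because a spot marked as faulty was left out. RBBP8, the resection factor CtIP, stood at 0.68 ± 0.17 at day 3 (adjusted p = 0.00997) with no overlap, and at 0.16 and 0.09 later. EXO1, an exonuclease that extends resection, stood at −0.68, 0.18 and 0.99 (adjusted p = 0.046 at day 7, 7 of 7 animals higher).

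RAD50 changed far more in its other probe. That probe averaged 7.73 ± 0.34 (SD, n = 7) before irradiation. The day 3, day 5 and day 7 means were 5.19 ± 0.05 (n = 4), 5.78 ± 0.21 (n = 6) and 6.42 ± 0.32 (n = 7). It fell in all animals on all days, with measured differences of −2.53 (adjusted p = 1.03e-05), −1.94 (adjusted p = 2.99e-06) and −1.30 (adjusted p = 0.000176), and rose again by 1.23 from day 3 to day 7 (adjusted p = 0.00456). It was well above background on all 7 pre-irradiation arrays but only on 2 of 4 arrays at day 3, 5 of 6 at day 5 and 6 of 7 at day 7, so its day 3 level lies near the background and the size of both differences that use day 3 rests on it. It was not counted as a member call, since the rule takes the brightest probe.

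MDC1, the scaffold that reads phosphorylated H2AX, rose at day 7. Its lowest, median and highest levels were 8.70, 9.14 and 9.46 before irradiation and 9.48, 10.13 and 10.42 at day 7, without overlap. The difference was 0.91 ± 0.18 (adjusted p = 0.00228, 1.87-fold, 7 of 7 animals). At days 3 and 5 it was 0.30 (adjusted p = 0.24) and 0.43 (adjusted p = 0.0531), with day 3 arrays of 9.07, 9.71, 9.33 and 9.62 and day 5 arrays of 9.30 to 9.88. A second MDC1 probe showed differences of 0.84, 0.32 and −0.08, so that at day 7 it did not share the sign. The block on animals took the adjusted p to 0.00665, no filter on dim probes to 0.00518 and normexp to 0.0974, the call was lost without replicate 1, 2, 3, 5 or 7, and the value within the session was 0.90. The ubiquitin ligase RNF8, which MDC1 recruits, stood at −0.24, −0.40 and −0.24. TP53BP1, which protects ends from resection, stood at −0.69 at day 3 (adjusted p = 0.0115, no overlap), −0.36 and −0.23.

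The checkpoint kinases held no call in the brightest probe. CHEK2, the effector kinase of ATM, had day 3 arrays of 8.51, 8.61, 8.36 and 9.28 against 9.02 to 9.55 before irradiation, a difference of −0.62 ± 0.19 (adjusted p = 0.0259). At days 5 and 7 it stood at −0.04 and 0.19. A second CHEK2 probe was called lower at day 3, by 1.05 ± 0.17 (adjusted p = 0.00109), and a further one stood at −0.93 (adjusted p = 0.0163). TOPBP1, which activates ATR, stood at −0.05, 0.24 and 0.41. CHEK1, the effector kinase of ATR and found only by its transcript record, averaged 7.34 ± 0.32, 7.0 ± 0.41, 7.88 ± 1.09 and 8.44 ± 0.73 (SD) over the 4 groups in order of time. Its day 7 arrays did not overlap with those before, at a difference of 1.10 ± 0.29 (adjusted p = 0.0111, 7 of 7 animals higher).

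Homologous recombination held the one member called higher at day 3, XRCC2, a protein of strand exchange. Before irradiation its lowest, median and highest levels were 6.11, 7.17 and 7.85, and the day 3 arrays read 8.74, 8.53, 8.82 and 8.46, all above. The difference was 1.61 ± 0.28 (adjusted p = 0.00139, 3.04-fold, 4 of 4 animals). At day 5 the levels were 7.18 to 8.09 (0.62, adjusted p = 0.0738) and at day 7 5.72 to 7.01 (−0.74, adjusted p = 0.0367, 7 of 7 animals lower). The level of XRCC2 was thus above the pre-irradiation mean at first and below it last. It was above background on 6 of 7 pre-irradiation and 6 of 7 day 7 arrays and on every day 3 and day 5 array. With the animal as a block the day 3 adjusted p was 0.0118, and the call was lost without replicate 2 or 4. Within the session the day 3 difference was 1.46 against the 1 pre-irradiation array, and with normexp it was 0.85.

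None of the other 7 recombination genes was called, with 1, 1 and 3 of them at an unadjusted p under 0.05 at days 3, 5 and 7 (46.6%, 45.6% and 39.5% of all probes). RAD54L, a motor protein of the homology search, came nearest. Its pre-irradiation arrays ran from 6.43 to 7.13, its day 5 arrays from 7.28 to 9.75 and its day 7 arrays from 7.22 to 9.55, without overlap. The differences were 1.43 ± 0.34 (adjusted p = 0.00523) and 1.31 ± 0.30 (adjusted p = 0.00522), just outside the threshold. The second RAD54L probe, whose sequence is given above, was called higher at both days (adjusted p = 0.00344 and 0.000387). It was above background on 0 pre-irradiation, 0 day 3, 3 day 5 and 5 day 7 arrays, and so passed the filter only through the groups where it was high. Its calls therefore add no support to a rise of RAD54L, and its difference is a bound of at least 1.28-fold at day 5 and at least 1.35-fold at day 7. BRCA1, which steers ends to recombination, averaged 6.22 ± 0.37, 6.04 ± 0.29, 6.49 ± 0.64 and 6.26 ± 0.48 over the 4 groups in order of time. Its differences of −0.17, 0.27 and 0.04 had adjusted p of 0.564, 0.467 and 0.906. Its partner BARD1 stood at −0.37, 0.46 and 0.65. BRCA2, a mediator of recombination, was above background on 0 pre-irradiation, 0 day 3, 2 day 5 and 3 day 7 arrays, so that no fold is given for it. RAD51C and XRCC3, which act together in recombination, stood at −0.59, −0.25 and −0.31, and at −0.68, −0.30 and 0.28. The XRCC3 probe was above background on 3 of 7 pre-irradiation, 1 of 4 day 3, 4 of 6 day 5 and 6 of 7 day 7 arrays, so its values lie partly at the background. RAD52, a strand-annealing protein, stood at −0.39, −0.56 and −0.62, above background on 2, 3, 4 and 4 arrays of the groups in order of time. PALB2, the bridge between BRCA1 and BRCA2 and found only by description, stood at −0.14, −0.06 and −0.02.

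End joining held no call. XRCC5 and XRCC6 form Ku, DCLRE1C opens hairpins, LIG4 is the ligase and NHEJ1 its stabilising factor. None of these 5 genes was called on any day in limma, with 0, 0 and 3 at an unadjusted p under 0.05 (46.6%, 45.6% and 39.5% of all probes). Their differences ran from −0.17 to 0.18 at day 3, from −0.31 to 0.32 at day 5 and from −0.48 to 0.32 at day 7. The 95% interval of each can be read in the plot of members by role, and these values do not show that the genes stayed the same. The further XRCC5 probe shown above was called higher at day 7 by 1.2 ± 0.27 (adjusted p = 0.00486), where the brightest stood at −0.04. A second XRCC6 probe stood at −0.29, −0.58 and −0.84 (adjusted p = 0.00839 at day 7).

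PARP1, which senses nicks and breaks and builds poly(ADP-ribose) chains, fell at day 3. Its arrays read 12.14, 12.50, 12.41 and 12.65 at day 3, against 13.17, 13.41 and 14.04 (lowest, median, highest) before irradiation, without overlap. The difference was −1.12 ± 0.19 (adjusted p = 0.00123, 2.17-fold lower, 4 of 4 animals). At day 5 and day 7 its levels of 12.37 to 13.69 and 12.52 to 13.82 overlapped with those before, at −0.71 (adjusted p = 0.0206) and −0.51 (adjusted p = 0.0981). The day 3 call was lost with the animal as a block (adjusted p = 0.0162) and without replicate 1, 2 or 4, and within the session the difference was −1.28. It was also lost with normexp and with the session as a block. POLQ, the polymerase of theta-mediated joining, stood at −0.38, 0.60 and 1.25 ± 0.30 (adjusted p = 0.00697 at day 7, 7 of 7 animals higher). With the animal as a block POLQ was called at day 7 (adjusted p = 0.00228).

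WRN, the RecQ helicase and exonuclease lost in Werner syndrome, fell at days 3 and 5. Its lowest, median and highest levels before irradiation were 9.32, 9.75 and 10.32, and the day 3 arrays read 7.96, 8.39, 8.15 and 8.57. At day 5 they were 8.57, 8.76 and 9.29 and at day 7 9.40, 9.67 and 10.24. The first days lay wholly below the pre-irradiation arrays and the last overlapped with them. The differences were −1.63 ± 0.22 (adjusted p = 0.000435, 3.09-fold lower), −1.08 ± 0.19 (adjusted p = 0.00081, 2.11-fold lower) and −0.17 ± 0.19 (adjusted p = 0.546). A second WRN probe was called lower on the same days, by 1.78 (adjusted p = 0.000489) and 1.2 (adjusted p = 0.000345). With the animal as a block the day 3 adjusted p was 0.00545 and the day 5 call remained, whereas within the session the differences were smaller, −1.06 and −0.51 against 1 array. The day 3 and day 5 calls of WRN were both lost with normexp and with the session as a block. BLM, the helicase that dissolves recombination intermediates, stood at 0.12, 0.09 and 0.22.

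FANCC, a subunit of the Fanconi anaemia core complex that senses crosslinks, was called higher at day 7. It was well above background on 0 pre-irradiation, 0 day 3, 2 day 5 and 5 day 7 arrays, so its difference is at least 1.39-fold. The measured levels were 3.81, 4.54 and 5.31 (lowest, median, highest) before irradiation and 5.09, 5.92 and 6.47 at day 7, with a fitted difference of 1.18 ± 0.26 (adjusted p = 0.00379, 7 of 7 animals higher). The groups overlapped. Of the 7 arrays on which this probe was above background 5 were day 7 arrays, so it passed the filter largely through the group where it was high, and with no filter on dim probes the call was lost. The day 3 arrays read 4.66, 4.55, 4.27 and 4.82. The call was kept with the animal as a block (adjusted p = 0.00198) and lost without any 1 replicate but replicate 4. Within the session of 6 against 6 arrays the difference was 1.09, and with normexp 0.25. FANCI, one of the proteins that the core complex marks with ubiquitin, stood at 0.03, 0.41 and 0.65 (adjusted p = 0.0323). Its partner FANCD2, found only by description, averaged 5.64 ± 0.30, 5.07 ± 0.58, 5.77 ± 0.42 and 5.88 ± 0.57 over the 4 groups, with differences of −0.57 (adjusted p = 0.0984), 0.13 and 0.24. The ubiquitin ligase FANCL stood at −0.52, 0.08 and 0.20.

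**Figure D3:**
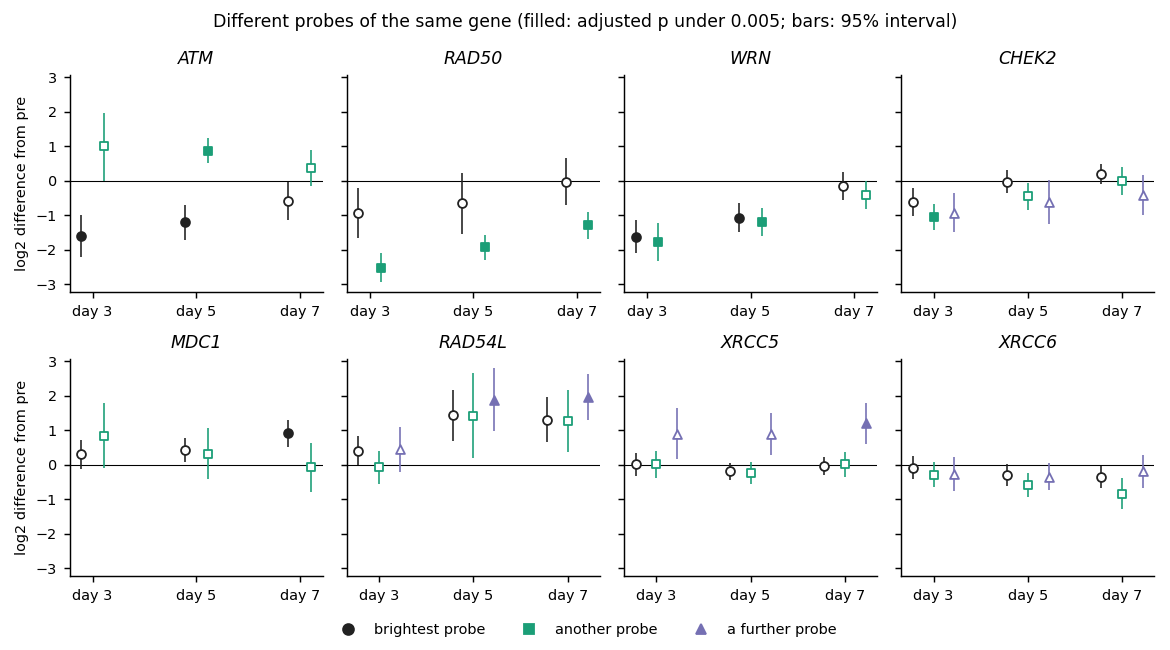
Log2 difference from pre-irradiation blood (y axis) at day 3, day 5 and day 7 for each tested probe of ATM, RAD50, WRN, CHEK2, MDC1, RAD54L, XRCC5 and XRCC6, with 95% intervals. The ATM probes lie on opposite sides of 0 (−1.61 and 0.99 at day 3), whereas those of WRN run together.

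Probes of the same gene could be compared for 15 members with more than 1 tested probe. All tested probes of a gene had the same sign in 9 of the 15 at day 3, 11 at day 5 and 10 at day 7. ATM and NHEJ1 differed in sign between their probes on every day, RAD52 at days 3 and 5, and XRCC5 at days 5 and 7. Over all 50 member probes 1 was called higher and 7 lower at day 3, where 13.5% of all probes were called. At day 5 there were 2 higher and 5 lower (16.7% of all probes), and at day 7 5 higher and 2 lower (10.9% of all probes). The higher ones include the second RAD54L probe on both days and FANCC at day 7. These were above background on 0 pre-irradiation arrays, so the counts of days 5 and 7 are not read against those shares.

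Between the days after irradiation the members moved most from day 3 to day 7. WRN rose and XRCC2 fell (6.45% of members called, against 1.62% of named genes, 0.361% higher and 1.26% lower). WRN gained 1.46 ± 0.20 (adjusted p = 0.00274) and XRCC2 lost 2.35 ± 0.23 (adjusted p = 0.000442, 5.09-fold lower), each without overlap and in 4 of 4 animals. In all, 7 members did not overlap between these days, where 13.4% of named genes did not. The 7 include FANCC and XRCC3, above background on 0 and 1 of the 4 day 3 arrays, so their count is not read against that share. Both calls were lost with the animal as a block (adjusted p = 0.0127 and 0.00662). The WRN call was lost without any 1 of replicates 1, 2, 4 and 7, and the XRCC2 call without replicate 1. With normexp XRCC2 stood at −1.17. The WRN call was lost with no filter on dim probes (adjusted p = 0.00687) and with normexp (adjusted p = 0.202). Of the 31 members 24 were above 0, with a median of 0.61 beside −0.01 for all named genes. The 24 include FANCC and BRCA2, at background on all day 3 arrays, which passed the dim-probe filter through later days. This count is therefore given as a description only. At an adjusted p under 0.05 there were 10 higher and 1 lower members (35.5%, against 17.1% of named genes), with FANCC, at background on all day 3 arrays, among the 10, so this share is not read against that of all genes. EXO1 (1.67), POLQ (1.63), FANCC (1.19, a bound of at least 1.83-fold), ATR (1.05, adjusted p = 0.00895), ATM (1.03), BARD1 (1.02), XRCC3 (0.96, above background on 1 of 4 day 3 arrays), MRE11A (0.83) and CHEK2 (0.81) joined WRN there. Between these days the probes of a gene shared their sign in 9 of 15 members and differed in 6. The other ATM probe stood at −0.63 (adjusted p = 0.433) and the second MDC1 probe at −0.92 (adjusted p = 0.0424), against 0.61 in the brightest. All day 3 arrays lie in the session that holds only 1 day 7 array, so most of this contrast also lies between scan sessions. With the session as a block the median was 0.37 and no member was called, whereas WRN and XRCC2 still stood at 1.31 (adjusted p = 0.429) and −2.24 (adjusted p = 0.188).

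**Figure D4:**
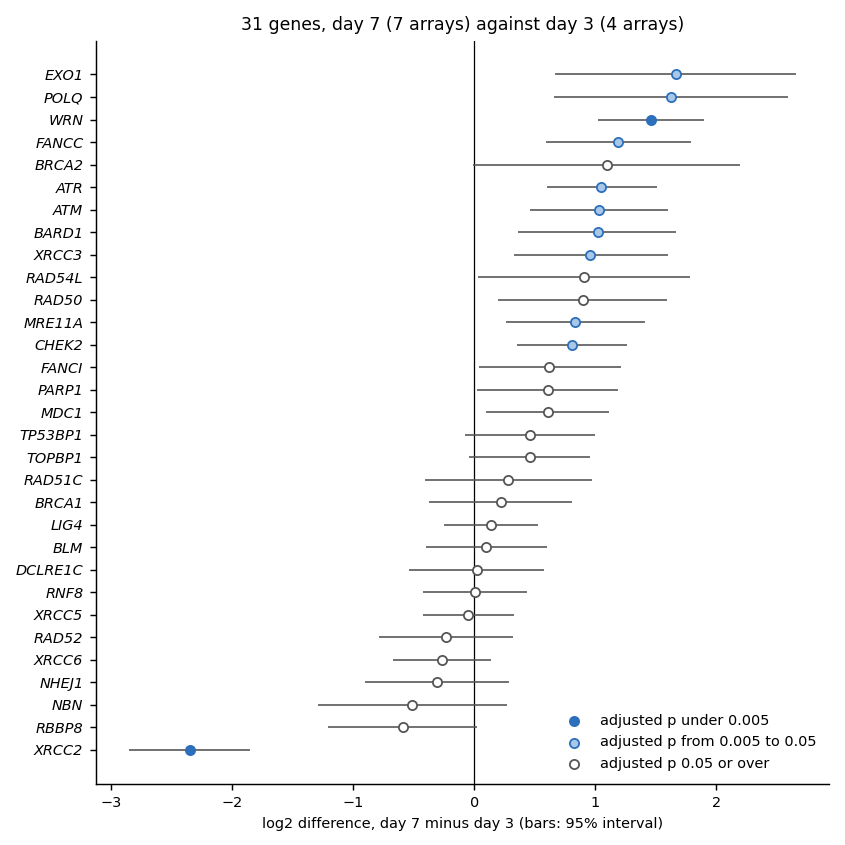
Log2 difference of day 7 from day 3 (x axis) for the 31 tested members, with 95% intervals. Filled points were called at an adjusted p under 0.005. WRN lies at 1.46 and XRCC2, far to the left of all others, at −2.35.

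From day 3 to day 5 no member was called in limma (0.038% of named genes, 4 members at an unadjusted p under 0.05, against 10.1% of all probes), and the median was 0.29. XRCC2 stood at −0.99 (adjusted p = 0.105) and WRN at 0.55 (adjusted p = 0.369). These 2 groups shared a scan session. From day 5 to day 7 none was called either (0.00949% of named genes, 7 members at an unadjusted p under 0.05, against 20.8% of all probes), at a median of 0.17. At an adjusted p under 0.05 WRN (0.91, adjusted p = 0.0259) and ATR (0.60) were higher there and XRCC2 lower (−1.36, adjusted p = 0.0236), 9.68% of members against 3.16% of named genes.

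The wider repair list held further genes of recombination, crosslink repair, end processing and the 9-1-1 clamp, with 52 of 69 tested. At day 3 1 was called higher and 5 lower (11.5%, against 13.5% of named genes), and at day 5 none higher and 2 lower (3.85%, against 15.3%). At day 7 4 were higher and 1 lower (9.62%, against 9.85%), the higher ones 7.69% of the list against 2.7% of named genes. Its medians were −0.27, −0.01 and 0.12. BABAM1, a subunit of the BRCA1-A complex, was lower on every day by 2.34 (adjusted p = 0.000386), 3.20 (adjusted p = 2.07e-06) and 2.82 (adjusted p = 3.18e-05). UBE2T, the ubiquitin-conjugating enzyme of the Fanconi pathway, fell by 1.53 (adjusted p = 0.00376) and FANCF, a core subunit, by 1.04 (adjusted p = 0.00353) at day 3. TDP1, which removes trapped topoisomerase, fell by 0.79 at day 5 (adjusted p = 0.00185). At day 7 the phosphatase CDC25C and the nuclease subunit EME1 rose by 1.74 (adjusted p = 0.000688) and 1.38 (adjusted p = 0.00304). H2AFX, the histone H2AX, stood at −0.44 (adjusted p = 0.0493), −0.29 and −0.03.

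Many genes of a list of transcripts induced by DNA damage rose. Of 21 tested, 9, 10 and 9 were called higher at days 3, 5 and 7 and 1 lower at day 5 (42.9%, 52.4% and 42.9%, against 13.5%, 15.3% and 9.85% of named genes), with medians of 1.06, 0.93 and 0.73. CDKN1A, the p21 inhibitor of cyclin-dependent kinases, rose by 3.40 (adjusted p = 2.6e-06), 2.01 (adjusted p = 5.13e-06) and 1.01 (adjusted p = 0.000935). The ubiquitin ligase MDM2 rose by 1.54 (adjusted p = 0.0011) and 1.73 (adjusted p = 6.56e-05), with 0.84 (adjusted p = 0.0193) at day 7. EDA2R, a receptor of the TNF receptor superfamily, rose by 5.01, 4.67 and 5.43, and PHLDA3, an inhibitor of AKT, by 3.66, 3.19 and 2.90. These are descriptions of lists, and the difference between lists was not tested.

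Proliferation genes, many of which are active in the same cell cycle phases as recombination genes, were called mostly at day 7. Of 35 tested, 1 was called higher and 5 lower at day 3 (17.1%, against 13.5% of named genes), 1 higher at day 5 (2.86%, against 15.3%) and 11 higher at day 7 (31.4%, against 9.85%), with medians of −0.48, 0.61 and 1.2. The mean level of the list on an array ran from 8.76 to 9.12 before irradiation and from 8.13 to 8.82 at day 3. On the day 5 arrays it ran from 8.71 to 11.47 and on the day 7 arrays from 9.20 to 11.43. MKI67, the Ki-67 antigen, rose by 2.23 and the replication licensing factor CDT1 by 1.81 at day 7, and the mitotic genes UBE2C and CDK1 fell by 1.68 and 1.55 at day 3. TYMS, thymidylate synthase, was the one called higher at day 3. The part of proliferating cells in the values of RAD54L, POLQ, EXO1, CHEK1, BARD1 and FANCI was not tested.

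Replicate 4, 1 animal, lay at the top of its group for many members at the later days. This was noticed after the values were seen. Its array was the highest of the group in 19 of 31 members at day 5 and 18 of 31 at day 7, against 18.8% and 21.9% of named genes. Before irradiation it was highest in 7 of 31 members, against 11% of named genes, and at day 3 in 11 of 31, against 21.5%. RAD54L read 9.75 and 9.55 in this animal at days 5 and 7, POLQ 9.63 and 9.91, and EXO1 9.43 and 9.66. Its proliferation mean was 8.76 before irradiation, then 8.82, 11.47 and 11.43 on the 3 days, where no other animal passed 10.16. Cell markers of its day 7 array also stood at an end of the group, with the highest erythroid (11.89), T cell (13.63) and B cell (7.78) means and the lowest monocyte (11.83), neutrophil (14.27) and progenitor (7.38) means. At day 5 its erythroid (6.88), B cell (6.42) and monocyte (12.4) means were the lowest and its NK and cytotoxic mean (14.32) the highest. Their part in the values was not tested. Without replicate 4 the median of the members at day 7 was −0.04 rather than 0.09. The number of members called there was again 4, but the ATR call was lost and POLQ was called. RAD54L stood at 1.08 and 1.04 without this animal, and POLQ at 1.14 (adjusted p = 0.00341).

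**Figure D5:**
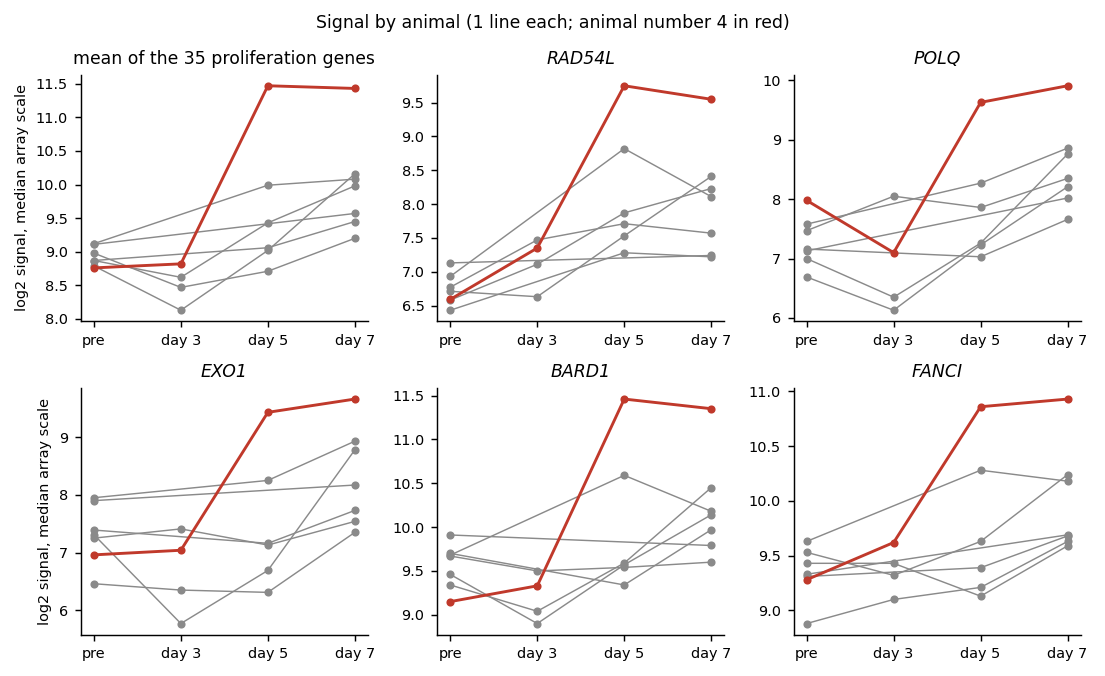
Log2 normalised signal (y axis) over the 4 times (x axis), 1 line per animal, for the mean of 35 proliferation genes and for RAD54L, POLQ, EXO1, BARD1 and FANCI. The animal with replicate number 4, drawn in red, has a proliferation mean of 11.47 at day 5 and 11.43 at day 7, above all other animals.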

How the data were processed

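Whole-blood RNA was measured on 24 one-colour rhesus arrays, 1 array per animal and day. Per the labels, RNA was globin-depleted and labelled with Cy3, and images were read with Feature Extraction 10.7, whereas the scanner headers give a later version. The labels and headers name a rhesus array and the methods a human one. The deposited scanner files hold processed intensity per spot, background-subtracted by the authors' scanner software, on a linear scale. The deposited value table holds log2 values that differ from the log2 processed intensity by 1 constant per array (column medians 7.37 to 7.70), and was used as an alternative. The authors' array annotation supplied gene names and rheMac2 positions.

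Log2 processed intensity was shifted to the median array (reference pre-irradiation replicate 2, shifts of −2.03 to 0.87), spots marked faulty were left out and spots of a probe averaged. A probe was tested if it passed the scanner's above-background flag on 4 or more of the 24 arrays (27133 of 43603). Each pair of groups was fitted on its own in limma 3.58.1 (R 4.3.3), two-sided, with Benjamini-Hochberg adjustment over all tested probes and calls at 0.005. Precision is limited by the number of arrays. On simulated data with 27133 probes, designs like those of days 3, 5 and 7 recovered 7%, 24% and 26% of log2 changes of 1, and 63%, 73% and 73% of changes of 2.

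Replicate numbers are animals. Deviations from group means of same-numbered arrays correlated (r of 0.132 to 0.454 against pre-irradiation), unlike those of other numbers (medians of −0.079 to −0.05), so values with the animal as a block stand beside calls they change. Where arrays come from separate animals, p-values measure the spread between these animals. Members and gene lists were chosen with earlier results of these data known. Every member is named. Values are given by group for called members and for ATM, ATR, CHEK1, CHEK2, BRCA1 and FANCD2 (PRKDC, also in that rule, had no probe matched), the rest by range and count. From each comparison list at most 3 called genes with the largest difference on a day are named, with CDKN1A, MDM2 and H2AFX, and some further genes of that rule are not reported here. RAD54L, POLQ and EXO1, second probes and replicate 4 were described after their values were seen. Alternatives covered normalization, background correction, the dim-probe filter, the probe, the samples in the fit, blocks for animal, slide and scan session, faulty spots, the threshold, the value table and each replicate left out.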

Additional observations from a re-analysis of the deposited data

Results flagged for a closer look

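In 8 of 124 groups of arrays 1 array stood far from the others of its group, and about 1 in 20 groups does so by chance. MRE11A read 7.17 on day 5 replicate 1, where the others lay between 7.53 and 7.74. TP53BP1 read 12.55 on day 5 replicate 4 (others 12.15 to 12.27), and RNF8 read 7.88 on day 3 replicate 2 (others 8.36 to 8.44). BRCA1 stood at 7.25 on day 7 replicate 4, where the others lay between 5.88 and 6.35. BRCA2 stood at 4.88 on pre-irradiation replicate 5 (others 2.88 to 3.35), the only pre-irradiation array of its scan session. XRCC3 read 5.98 on day 5 replicate 4 (others 4.85 to 5.14) and 6.90 on day 7 replicate 3 (others 5.25 to 5.83). BLM read 10.87 on day 7 replicate 3, below the 11.52 to 12.01 of the others.

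The difference between days was itself past the threshold for 2 members. WRN was 1.46 higher at day 7 than at day 3, and XRCC2 differed by −2.35 on the log2 scale.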

How the results depend on the processing

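The 14 called values kept direction and call in 205 of 279 alternatives, lost the call in 71 and reversed in 3, and the cause was not tested. The reversals came from the second probe: ATM stood at 0.99 (day 3) and 0.87 (day 5), MDC1 at −0.08 (day 7). RAD50, not called in its brightest probe, reversed in it to 0.53 at day 5 with all spots kept, and at day 7 to 0.07 with normexp, 0.13 without replicate 3 and 0.02 without replicate 7 (−0.14 to 0.13 over replicates left out). The 5 members called at day 3 became 0 with normexp, 1 with the replicate block, 0 with the scan session block, which rests on 1 pre-irradiation array, and 10 at 0.05, and leaving out 1 replicate gave 1 to 6. The 3 at day 5 became 1 with normexp, 0 with the session block, 5 with the second probe and 6 at 0.05 (2 to 3 without 1 replicate). The 4 at day 7 became 1 with normexp, 1 with no filter and 11 at 0.05 (1 to 4 without 1 replicate), and 3 with the replicate block. The 2 from day 3 to day 7 became 0 with normexp, 1 with no filter, 4 with all groups in 1 fit, 0 with the replicate block, 0 with the session block and 11 at 0.05 (0 to 2 without 1 replicate). From day 5 to day 7 there were 3 at 0.05, and without 1 replicate 0 in each of the other 2 day comparisons. The median from day 3 to day 7 (0.61) was 0.30 with normexp, 0.37 with the session block, 0.88 in the value table (19 members) and 0.39 with the second probe, and from day 5 to day 7 (0.17) 0.44 in the value table. Leaving out 1 replicate gave medians of −0.27 to −0.09, 0.00 to 0.12 and −0.04 to 0.19 at days 3, 5 and 7, and of 0.18 to 0.40, 0.47 to 0.64 and 0.13 to 0.28 between days. NBN at day 7 kept its call in all 20 of its alternatives. The session block could not be fitted between days 3 and 5, which share a session.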
